A study of Mus musculus with 30 samples.

Results

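The response to 2 h of lipopolysaccharide (LPS), a cell wall component of Gram-negative bacteria, was measured in mouse bone marrow-derived macrophages that had received only the vehicle DMSO. The 14 RNA-seq libraries came from 7 cultures (named r1, r2, UKD and, in a series of their own, D3 to D6), each with 1 library at 0 h and 1 at 2 h, out of 30 libraries in the series. They were chosen by label, as all DMSO libraries of these times. All cells were grown with the growth factor M-CSF from bone marrow of wild-type C57Bl/6 mice, and all, controls included, had 2 h of DMSO first. The 2 h group then had LPS, labelled 100 ng/µL, for 2 h, whereas the 0 h group had none. The 7 DMSO libraries taken at 1 h of LPS are given as an intermediate time. The series also holds cultures given a drug before LPS, which are not described here. Nothing in the labels says that libraries of 1 name share a mouse, so p-values measure the spread between these cultures.

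LPS is handed by CD14 and MD-2 (encoded by Ly96) to Toll-like receptor 4, which signals through the adaptors MyD88 and TRIF. The MyD88 branch activates the transcription factor NF-kB and MAP kinases, and with them genes of cytokines, chemokines and their own inhibitors. The TRIF branch activates IRF factors and the gene of interferon β, which acts back on the cells to switch on interferon-stimulated genes.

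By the read steps in the low values, the 14 libraries held about 18 to 92.1 M reads (median 45.7). In RPKM, reads per kilobase of transcript scaled to library depth, a single read of a 2 kb transcript was worth 0.0054 to 0.0277. No value in the table was 0 and a transcript without reads carries the value of 1 read, so the lowest values are upper limits. Among the 1 h libraries, D6, UKD and D4 were shallower than all 14, at about 5.38, 8.49 and 9.71 M reads. Comparisons with 1 h rest on fewer reads there. Within a culture the deviations from the time means correlated between 0 h and 2 h, at 0.637 (D6) to 0.882 (D5), above those with any other culture, and the 2 libraries of a culture were treated as a pair. Of 12 macrophage markers all passed the filter, led by Lyz2 at 4505 ± 1098 RPKM (SD, n = 7) at 0 h, and none of the markers tried for dendritic, for T and NK, for stromal or for erythroid and mast cells did. Of 12 neutrophil markers, 6 passed and 4 of these rose by less than 2-fold, among them S100a8 (from 8.2 to 13.5 RPKM), S100a9 (0.77) and Ngp (0.80), while Mmp8 was at -0.35. The markers summed to 12.6 to 53.8 RPKM at 0 h and 13.4 to 96.9 at 2 h, and their part in the results below was not tested. The single B cell marker that passed, Cd79b, had a mean of 0.892 RPKM at 0 h and a change of -0.57. Of the macrophage markers 2 rose (Cd14 and Spi1) and 2 fell (Mertk, by 0.90, and Fcgr1). In bulk RNA, fewer cells of a type and less RNA per cell cannot be told apart.

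Expression was compared as log2(RPKM + 0.5) in a paired limma fit over 10075 genes that reached 1 RPKM in at least 3 libraries. Every ± is an SD over 7 cultures, every change is 2 h minus 0 h on that log2 scale, and an adjusted p (limma, Benjamini-Hochberg) under 0.05 counts as a call. On the deposited RPKM, 1464 genes were higher at 2 h (14.5%) and 6248 lower (62%). After scaling libraries by median of ratios, these became 2991 (29.8%) and 3156 (31.5%) of 10031, and the median change of all genes moved from -0.25 to -0.02. Below, "rose" and "fell" are used only of genes called in the same direction on both scales: 1463 rose (14.5%) and 3155 fell (31.3%). Counts in every gene list below are to be read against these shares. At least 2-fold on both scales, 512 genes rose (5.08%) and 218 fell (2.16%). With a pseudocount of 0.1 in place of 0.5 the last count was 381, and with 1 it was 145. Without pairing the libraries by culture, 926 genes were risen and 1471 fallen on both scales, and within the D3 to D6 cultures alone, 1962 were fallen.

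On the log2 scale used, with its pseudocount, the rises were larger than the falls. Of the 512 genes that rose 2-fold, 228 rose at least 4-fold and 51 at least 16-fold, 148 had a mean under 1 RPKM before LPS, and 499 were higher in all 7 cultures. Of the 218 that fell, 29 fell at least 4-fold and 0 at least 16-fold, and 216 were lower in all 7 cultures. The pseudocount caps a fall by the level at 0 h, whereas a rise has no such cap. The median log2 level of the 218 at 0 h was 2.37 (D3) to 2.70 (D4), too low for a 16-fold fall. The count of 0 is therefore partly set by the pseudocount and cannot be compared directly with the 51. Scaling shifted changes upward, so the weakest fall counted here was -1.16 as deposited, against 1.00 for the weakest rise. The 0 h and 2 h values of the 7 cultures did not overlap for 371 of the 512 and 165 of the 218; over all genes tested they did not overlap for 479 higher (4.75%) and 1185 lower (11.8%). Because of the filter, 106 of the 512 entered the fit only through their 2 h values and 40 of the 218 only through their 0 h values. For such genes, Il12b, Il1a, Il6, Ptgs2, Ifnb1 and Cnr2 among them, the adjusted p adds no support beyond the values. The 512 genes made up 1.72 to 2.53% of summed RPKM at 0 h and 10.3% (D3) to 16.3% (r1) at 2 h. RPKM are relative to a library's total, and how far this gain moved the values of other genes was not tested.

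**Figure D1:**
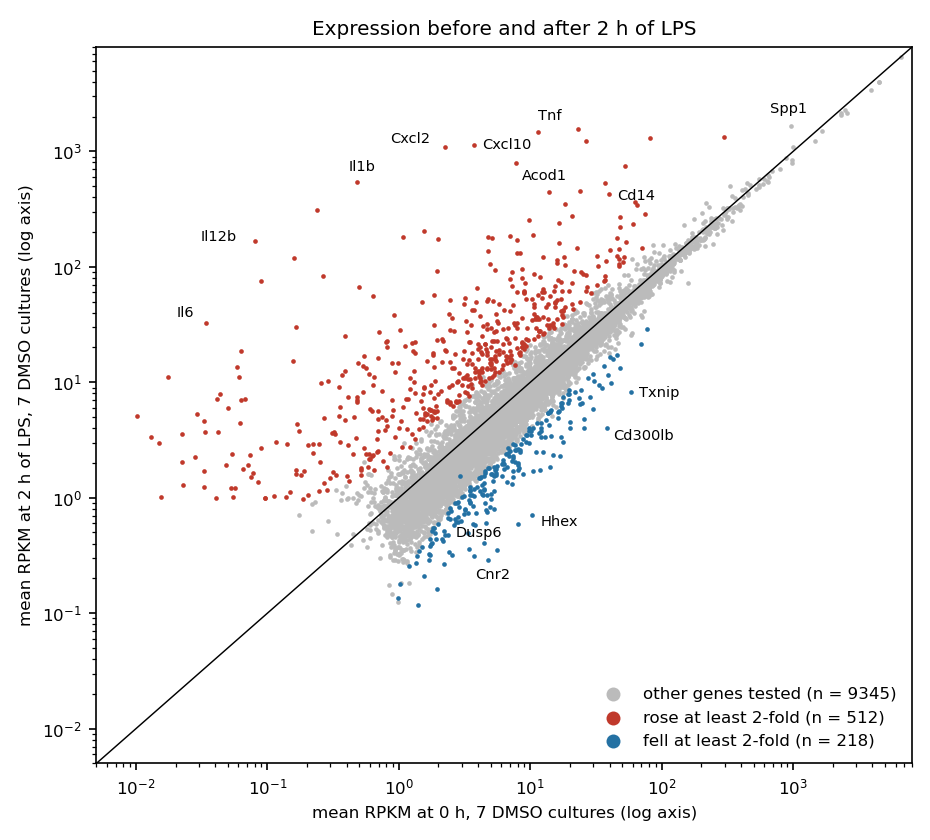
Mean RPKM of each of 10075 genes at 0 h (x) and after 2 h of LPS (y) over 7 DMSO cultures, both on log axes, with the line of equal values. The 512 genes that rose at least 2-fold reach far above the line at low 0 h levels, whereas the 218 that fell lie close below it.

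Il1b gave the largest change of all genes tested. It encodes the fever-inducing cytokine interleukin-1β and ranged from 0.0385 to 1.67 RPKM (median 0.173) at 0 h and from 367 to 803 RPKM (median 503) at 2 h. Every culture at 2 h lay above the highest 0 h value, and D6 was the highest at both times. The change was 9.26 ± 0.54 (SD, n = 7), with an exact two-sided sign-flip p = 0.0156, the smallest that sign flips of 7 pairs can give; the change in limma had SE 0.16 and adjusted p = 2.44e-10. Of 20 cytokine genes tested, 17 rose, 16 of them at least 2-fold, 1 fell and 2 were not called, with a median change of 3.02 against -0.25 over all genes. That median was 4.72 with a pseudocount of 0.1 and 2.41 with 1.

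Il12b, the shared subunit of interleukins 12 and 23, ranged from 0.0155 to 0.214 RPKM (median 0.0487) at 0 h and from 10.9 to 386 RPKM (median 152) at 2 h, a change of 7.54 (SE 0.49, adjusted p = 1.29e-06). Its highest 2 h value was in r1 and its lowest, 10.9 RPKM, in D3. Il1a, encoding interleukin-1α, went from 0.16 to 119 RPKM, a change of 7.48 (SE 0.12, adjusted p = 2.44e-10). Tnf, encoding tumour necrosis factor, was present before LPS from 4.44 to 17.6 RPKM (median 11.9) and reached from 1011 to 1962 RPKM (median 1491), a change of 7.01 (SE 0.21, adjusted p = 4.76e-09). At 1 h Tnf had been higher still, at 2066 ± 397 RPKM, and 2 h minus 1 h was -0.52 (adjusted p = 0.00124).

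Il6, a driver of the acute-phase response, stood at no more than 0.0826 RPKM in any 0 h library. At 2 h it ranged from 14 to 53.3 RPKM (median 35.8), a change of 5.81 (SE 0.22, adjusted p = 2.62e-08). Like Il12b and Il1a, Il6 entered the fit only through its 2 h values. The size of these 3 changes depends on the 0.5 added. Genes of regulatory cytokines rose too: Il27 by 5.14, Il1rn, the antagonist of the interleukin-1 receptor, by 2.56, and Il10 by 2.35, the last to a mean of only 3.72 RPKM. Csf1, the gene of M-CSF itself, rose from 1.49 to 49.2 RPKM. The exception was Il16, which encodes a T cell chemoattractant precursor: it ranged from 2.77 to 9.62 RPKM (median 3.52) at 0 h and from 0.331 to 1.62 RPKM (median 0.7) at 2 h and fell by 1.94 (SE 0.16, adjusted p = 4.5e-06). Il18 and Tgfb1 were not called, at changes of 0.12 and 0.08.

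Chemokine genes were among those with the highest levels after LPS. Of 17 tested, 15 rose, all at least 2-fold, none fell, and the median change was 4.14. Cxcl2, which attracts neutrophils, ranged from 0.338 to 5.7 RPKM (median 1.07) at 0 h and from 539 to 1956 RPKM (median 878) at 2 h, a change of 8.87 (SE 0.21, adjusted p = 1.28e-09). Its neighbours in function Cxcl1 and Cxcl3 changed by 8.54 and 6.70. Among CC chemokines, which attract monocytes and T cells, Ccl4 went from 22.9 to 1571 RPKM, Ccl3 from 26.6 to 1222 RPKM and Ccl2 from 81.2 to 1299 RPKM. These 3 with Cxcl2, Cxcl10 and Tnf were among the 10 risen genes with the highest mean at 2 h, where Spp1 (osteopontin, from 957 to 1661 RPKM) came first. Vim and Sqstm1 completed that group with Acod1; Vim, an intermediate filament gene, was high throughout and changed by only 0.14. Ccl6 was not called (-0.10), nor was Cxcl14 after scaling (-0.24 as deposited).

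The interferon-linked chemokines varied widely between cultures. Cxcl10 ranged from 0.846 to 15 RPKM (median 1.51) at 0 h and from 521 to 2346 RPKM (median 1049) at 2 h, a change of 8.50 (SE 0.40, adjusted p = 1.37e-07). Ccl5 ranged from 0.26 to 61.1 RPKM (median 1.02) at 0 h and from 93.3 to 346 RPKM (median 302) at 2 h, a change of 6.47 (SE 0.57, adjusted p = 7.49e-06). For both, the highest 0 h value was in D4, where Ccl5 stood at 61.1 RPKM before LPS while the other 6 cultures stayed at or below 3.03; its change there was 2.49. All 7 cultures reached at least 93.3 RPKM of Ccl5 at 2 h, above every 0 h value.

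**Figure D2:**
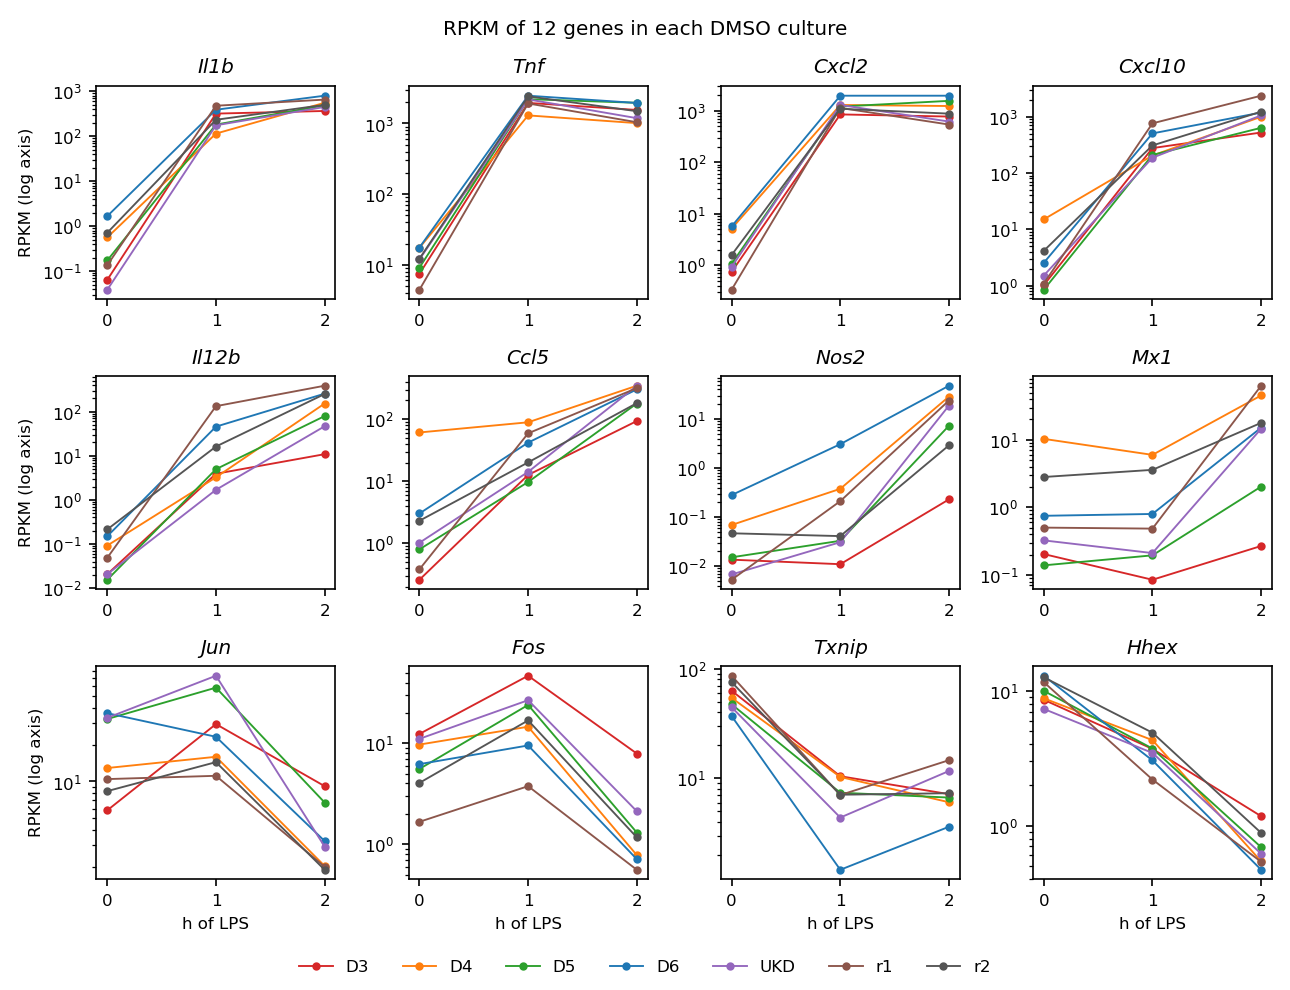
RPKM (log axes) of 12 genes at 0, 1 and 2 h of LPS, 1 line for each of the 7 DMSO cultures. Il1b, Tnf and Cxcl2 jump by 1 h in every culture, Il12b, Nos2 and Mx1 climb later and spread widely with D3 lowest at 2 h, and Jun and Fos peak at 1 h in most cultures before ending low.

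To see which response motifs precede these genes, promoters were read. The 250 bases before the gene start, taken from RefSeq on GRCm38.p6 by gene symbol (the RPKM table itself was made on mm9), were found for 16 of the 20 largest rises and for 8172 of the 10075 genes tested. They were searched on both strands for the NF-kB Rel consensus, for the AP-1 motif TGANTCA, for the interferon response element GAAANNGAAA, for the CRE TGACGTCA and for TATAAA; where a gene has several starts only the first listed was used. The NF-kB consensus stood in 7 of the 16 (43.8%), in 11 of 38 genes that rose at least 16-fold (28.9%), in 47 of 412 that rose at least 2-fold (11.4%), in 4 of 171 that fell at least 2-fold (2.34%) and in 356 of all 8172 (4.36%). AP-1 motifs stood in 18.4% of the 16-fold rises and 4.28% of all, and interferon elements in 18.4% and 2.84%. The CRE was in 0 of the 38 and in 2.83% of all. TATAAA stood in 23.7% of the 16-fold rises against 5.95% of all, and their median was 5 CpG dinucleotides in 250 bases against 16. These shares are a description: no test was made, and a match is not a bound site.

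The windows below are those of the 8 largest rises that hold one of the NF-kB, AP-1, interferon or CRE motifs, printed 5′ to 3′ on the strand of the gene with these motifs in capitals, so that the same sites can be compared between genes.
Cxcl2, chr5:90903649-90903898, plus strand: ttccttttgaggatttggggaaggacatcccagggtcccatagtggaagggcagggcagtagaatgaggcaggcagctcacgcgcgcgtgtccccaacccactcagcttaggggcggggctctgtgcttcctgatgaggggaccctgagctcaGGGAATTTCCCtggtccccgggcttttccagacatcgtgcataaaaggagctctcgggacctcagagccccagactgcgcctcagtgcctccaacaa
Cxcl1, chr5:90890995-90891244, plus strand: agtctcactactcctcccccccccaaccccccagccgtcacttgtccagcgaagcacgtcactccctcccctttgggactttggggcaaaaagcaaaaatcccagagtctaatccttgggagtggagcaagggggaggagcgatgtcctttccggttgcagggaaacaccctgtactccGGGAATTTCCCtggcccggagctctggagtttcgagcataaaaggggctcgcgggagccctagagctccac
Cxcl10, chr5:92348890-92349139, minus strand: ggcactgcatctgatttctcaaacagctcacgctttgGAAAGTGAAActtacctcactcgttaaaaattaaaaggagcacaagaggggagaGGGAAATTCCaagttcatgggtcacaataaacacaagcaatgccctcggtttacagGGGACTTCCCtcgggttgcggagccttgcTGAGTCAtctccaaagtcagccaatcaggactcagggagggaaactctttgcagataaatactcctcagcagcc
Il1a, chr2:129309973-129310222, minus strand: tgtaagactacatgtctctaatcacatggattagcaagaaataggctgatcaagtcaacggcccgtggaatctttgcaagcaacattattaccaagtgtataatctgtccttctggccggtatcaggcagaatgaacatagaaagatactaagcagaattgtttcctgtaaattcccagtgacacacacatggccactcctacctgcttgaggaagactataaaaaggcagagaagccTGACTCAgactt
Cxcl3, chr5:90785851-90786100, plus strand: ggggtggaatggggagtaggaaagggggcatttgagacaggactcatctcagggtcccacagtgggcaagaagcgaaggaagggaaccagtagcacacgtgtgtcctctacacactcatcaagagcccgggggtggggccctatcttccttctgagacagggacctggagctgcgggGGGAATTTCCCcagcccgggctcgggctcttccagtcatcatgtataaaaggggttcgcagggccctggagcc
Gbp5, chr3:142496684-142496933, plus strand: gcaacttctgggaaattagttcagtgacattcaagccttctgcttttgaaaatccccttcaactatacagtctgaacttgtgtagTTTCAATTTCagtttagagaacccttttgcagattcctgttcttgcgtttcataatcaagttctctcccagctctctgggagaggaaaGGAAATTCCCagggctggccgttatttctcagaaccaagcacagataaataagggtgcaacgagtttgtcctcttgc
Ccrl2, chr9:111057519-111057768, minus strand: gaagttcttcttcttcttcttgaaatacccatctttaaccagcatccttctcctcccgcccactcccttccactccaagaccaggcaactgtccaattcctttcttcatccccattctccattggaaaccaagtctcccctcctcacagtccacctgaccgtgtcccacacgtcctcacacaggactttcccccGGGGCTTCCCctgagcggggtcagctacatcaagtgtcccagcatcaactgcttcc
Il6, chr5:30012864-30013113, plus strand: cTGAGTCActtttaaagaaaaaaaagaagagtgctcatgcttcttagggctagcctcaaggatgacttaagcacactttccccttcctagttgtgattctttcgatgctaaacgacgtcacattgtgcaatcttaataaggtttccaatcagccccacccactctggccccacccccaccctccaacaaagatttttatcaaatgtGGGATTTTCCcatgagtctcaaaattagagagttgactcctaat

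In Cxcl2, Cxcl1 and Cxcl3 the capitals are the same letters, GGGAATTTCCC, in which the consensus matches on both strands in overlapping positions. Counted from the start of the gene, they lie at -97 to -87 in Cxcl2, -71 to -61 in Cxcl1 and -73 to -63 in Cxcl3. Cxcl10 holds 2 NF-kB matches, 1 AP-1 and 1 interferon element, and Gbp5 1 NF-kB match and 1 interferon element. Il6 holds its NF-kB match at -44 to -35 and an AP-1 match at the far end of the window, and Ccrl2 holds an NF-kB match at -56 to -47. Il1a holds an AP-1 match at -12 to -6 and a TATAAA at -32 to -27, and none of the other 3 motifs. Il1b, Tnf and Acod1 hold none of the 4 motifs in this window but a TATAAA at -31 to -26, -29 to -24 and -28 to -23. Promoters of Nfkbiz, Ccl5, Ccl4 and Cd69 are not shown.

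The NF-kB system itself rose nearly as a whole. Of 26 genes of its subunits, IkB inhibitors and feedback regulators, 22 rose, 19 of them at least 2-fold, none fell, and the median change was 2.14. Nfkbiz, encoding the co-activator IkBζ, ranged from 0.998 to 2.61 RPKM (median 1.53) at 0 h and from 144 to 267 RPKM (median 194) at 2 h, a change of 6.64 (SE 0.13, adjusted p = 3.6e-10). Its smallest change was in D4, at 5.74. The inhibitors rose with the subunits: Nfkbia (IkBα) went from 23.7 to 453 RPKM, Nfkbie from 2.43 to 51.2 RPKM and Tnfaip3 (A20, which removes ubiquitin from signalling complexes) from 4.78 to 183 RPKM. Among subunits, Nfkb2 changed by 3.08, Relb by 2.98, Rel by 2.56, Nfkb1 by 2.17 and Rela by 1.24. Traf1, an adaptor of TNF receptors, and Tnip1, an A20 partner, changed by 4.54 and 2.63. The kinase subunit genes Chuk (0.09) and Ikbkg (-0.34, not called after scaling) did not pass on both scales, and Ikbkb rose by only 0.44.

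Upstream, genes of the receptor side went both ways. Of 26 Toll-like receptor pathway genes, 9 rose and 5 fell, where 14.5% of all genes tested rose and 31.3% fell. The share of falls was thus below that over all genes, and 1 of the 5 fell at least 2-fold on both scales. Tlr2, the receptor of bacterial lipopeptides, ranged from 10.2 to 32.7 RPKM (median 13.7) at 0 h and from 198 to 306 RPKM (median 230.3) at 2 h, a change of 3.91 (SE 0.18, adjusted p = 1.23e-07). Cd14 ranged from 29.8 to 48.5 RPKM (median 40.9) and from 306 to 506 RPKM (median 421), a change of 3.41 (SE 0.0865, adjusted p = 1.65e-09). Tlr4, the LPS receptor, fell by 1.00 (SE 0.12, adjusted p = 4.24e-05); it was lower in all 7 cultures, from 7.29 to 3.59 RPKM in the mean, though the ranges overlapped. Tlr8, Tlr13, Irak4 and Tab1 fell too, Tab1 most, by 1.43. Ly96, the MD-2 gene, was not called (-0.22), although it was called lower without r1 (-0.27) or r2 (-0.26). The median of this list was -0.04 as deposited and 0.15 after scaling.

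Feedback regulators of MAP kinases moved in opposite directions. Of 14 tested, 9 rose and 4 fell, all 13 at least 2-fold. Dusp2, a nuclear phosphatase of ERK and p38, changed by 4.13 (SE 0.18, adjusted p = 9.07e-08). Gadd45b changed by 3.96, Dusp16 by 2.16 and Spred1, an inhibitor of Ras signalling, by 1.30. Dusp6, the cytoplasmic ERK phosphatase, went the other way: it ranged from 3.45 to 12.2 RPKM (median 6.75) at 0 h and from 0.271 to 1.42 RPKM (median 0.455) at 2 h, with no overlap, and fell by 2.95 (SE 0.24, adjusted p = 4.4e-06). Dusp7, Gadd45g and Spry2 fell by 1.38, 1.43 and 1.27, though Spry2 was higher at 2 h in D3, by 1.33.

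Immediate-early genes, switched on without new protein synthesis, mostly had their highest mean at 1 h. This held for 7 of 10 AP-1 genes and 11 of 13 others tested. The same share over all genes tested was not computed, so a 1 h peak is not shown to be particular to these genes. Jun ranged from 5.81 to 36.2 RPKM (median 12.9) at 0 h, from 11.1 to 73.4 RPKM (median 23.2) at 1 h and from 1.89 to 9.16 RPKM (median 2.94) at 2 h, a 2 h change of -2.08 (SE 0.39, adjusted p = 0.000733), and Fos from 1.67 to 12.4 RPKM (median 6.22), from 3.76 to 46.8 RPKM (median 16.9) and from 0.557 to 7.91 RPKM (median 1.17), a change of -1.78 (SE 0.25, adjusted p = 0.000115). Of the 218 genes that fell at least 2-fold, themselves chosen by their 0 h and 2 h values, 5 had a higher mean at 1 h than at 0 h. They were Jun, Fos, Smad6, Spry2 and Arhgap39. Smad6 (5.27 RPKM at both 0 and 1 h) and Arhgap39 were chosen after their values were seen. In D3 Jun was higher at 2 h, at 9.16 RPKM after 5.81 at 0 h, whereas the other 6 cultures were lower at 2 h. Junb stayed high, from 12.5 to 121 RPKM, a change of 3.21 (SE 0.0684, adjusted p = 5.31e-10), and Maff changed by 4.11. Of the 10 AP-1 genes, 6 rose, among them Batf (1.56) and Jund (0.92), and 2 fell.

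Of the 13 other immediate-early genes, 9 rose, Ier2 among them (1.38), and 2 fell, Ier5l by 0.86 and Plk3 by 0.82. Ier5l exceeded 1 RPKM only at 0 h in D5, D6 and UKD, where it changed by -1.91 to -1.70. In D4 it changed by -0.50. In D3, r1 and r2 it was at or below 0.043 RPKM at 0 h and changed by -0.10 to 0.01. Egr2 and Csrnp1 changed by 3.74 and 3.35, and Ier3 by 1.56, after means of 33.4, 51.6 and 56.2 RPKM at 1 h that exceeded the 2 h means of 12.5, 18.7 and 11. Egr1 did not pass the filter: from 0.0529 to 0.596 RPKM at 0 h it reached 3.98 to 69.96 at 1 h. At 2 h it was down to 0.225 to 2.01 in 6 cultures, but at 11.6 in D3. Only in UKD was the 2 h value (0.489) below that at 0 h (0.574). The mRNA decay factor Zfp36 (tristetraprolin) showed the same order in its means, 8.9 RPKM at 0 h, 248 at 1 h and 58.8 at 2 h.

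Over all genes that rose at least 2-fold, 440 had their highest mean at 2 h and 72 at 1 h, 19 of these at more than 2 times the 2 h mean. These genes were chosen for being high at 2 h, so genes that peaked at 1 h and returned are left out. The split is therefore not the time course of the whole response. Between 1 h and 2 h, on the deposited scale, limma called 1181 of 9863 genes higher at 2 h (12%) and 2952 lower (29.9%), 4133 in all. After median-of-ratios scaling, 1798 of 9857 were higher and 1945 lower, so the excess of lower genes depended on the scale. Without the pairing, 1092 were called on the deposited scale. Il12b (2 h minus 1 h 3.27), Cxcl3 (3.25) and Ccl5 (3.12) were higher at 2 h than at 1 h, whereas Cxcl1 (0.10) and Socs3 (0.09), the inhibitor of interleukin-6 receptor signalling, were not called different between 1 h and 2 h.

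Interferon-stimulated genes rose in large number, by amounts that differed between cultures. Of 34 tested, 27 rose, 20 of them at least 2-fold, and none fell; leaving out D3 gave 28 and 22, and leaving out D4 gave 28 and 21. Gbp5, a guanylate-binding protein, changed by 6.11 (SE 0.21, adjusted p = 1.21e-08), Gbp3 by 3.46, and the RNA and DNA sensor genes Ifih1 (MDA5) and Ifi205 by 2.96 and 3.56. Rsad2 (viperin) went from 4.79 to 136 RPKM, Ifit1 from 3.16 to 53.7 RPKM and Isg15, a ubiquitin-like modifier, from 10.6 to 86.5 RPKM. Oas1a, Oas2, Oas3 and Bst2 did not pass on both scales, at changes of 0.03, -0.29, -0.29 and -0.07; Oas2 was called lower without UKD (-0.43). Ifnb1 itself, encoding interferon β, was at or below 0.0697 RPKM in every 0 h library. It ranged from 2.84 to 18.6 RPKM (median 3.98) at 2 h, a change of 3.60 (SE 0.32, adjusted p = 7.99e-06). Its 1 h mean was 6.39 RPKM. Ifnb1 too entered the fit only through its 2 h values.

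The cultures differed in these genes already before LPS. At 0 h, D4 had the highest value of the 7 cultures in all 34 genes, with a summed 819 RPKM, against 96.5 in D3, 151 in D5, 197 in UKD, 218 in r1, 337 in D6 and 407 in r2. At 2 h the sum was highest in r1, at 2025 RPKM, followed by D4 at 1443, and lowest in D3, at 273. The median change was 0.46 in D4 and 0.62 in D3, and 2.87 in r1, which had the largest change in 32 of the 34 genes. Mx1, an antiviral GTPase, shows the extremes: it stood at 10.3 RPKM in D4 before LPS, went from 0.502 to 63 in r1, and was at 0.204 and 0.269 in D3. Ifnb1 at 2 h was 14.7 RPKM in D3, second only to 18.6 in r2. With 1 library of each culture and time, these differences between cultures have no test.

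**Figure D3:**
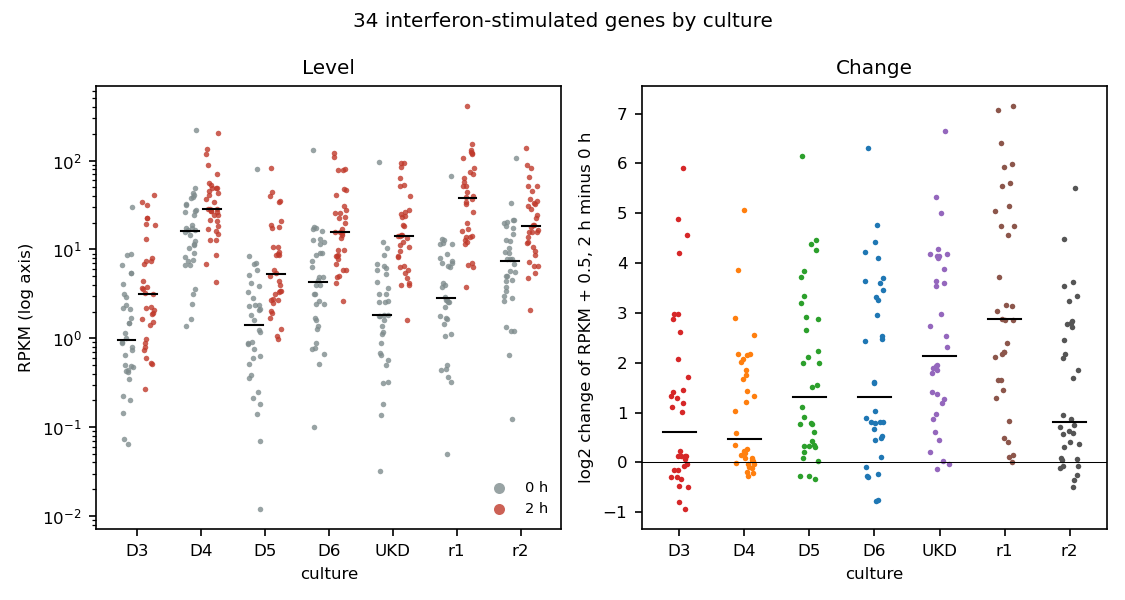
RPKM at 0 h and 2 h (left, log axis) and log2 change (right) of 34 interferon-stimulated genes in each of 7 cultures, 1 point per gene, bars at the medians. D4 is highest at 0 h, r1 has the largest change (median 2.87) and D4 the smallest (0.46).

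Of 16 interferon regulatory and STAT genes, 8 rose and 1 fell. Irf1 went from 8.32 to 133 RPKM, a change of 3.79 (SE 0.22, adjusted p = 5.99e-07), and Stat5a changed by 1.47. Irf7, itself induced by interferon, rose by 0.86, a call lost without UKD (0.72), and Stat2 (0.21) and Irf9 (0.19), which act in interferon signalling, were not called, Irf9 becoming called without D3 (0.27). Stat6 was at -0.22 as deposited and 0.04 after scaling. Irf8, a factor of the monocyte lineage, fell by 1.28. Socs3 ranged from 0.425 to 1.65 RPKM (median 1.17) at 0 h and from 110.0 to 275 RPKM (median 156) at 2 h, a change of 6.85 (SE 0.13, adjusted p = 3.52e-10); Cish, of the same family, changed by 4.21, and the receptor genes Tnfrsf1b and Il10ra by 2.50 and 1.12, whereas Socs6 and the receptor genes Il6ra and Il6st fell by 0.97, 1.44 and 0.64. In this list of SOCS and receptor genes 10 of 19 rose and 4 fell.

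Enzymes of the inflammatory state rose. Of 19 tested, 14 rose and 2 fell. Acod1, which makes itaconate from a Krebs cycle intermediate, ranged from 1.32 to 31.9 RPKM (median 2.62) at 0 h and from 427 to 1266 RPKM (median 714) at 2 h, a change of 7.31 (SE 0.37, adjusted p = 2.58e-07), with D4 highest at both times. Ptgs2 (cyclooxygenase-2) changed by 6.70 (SE 0.13, adjusted p = 3.52e-10), Ch25h, which makes 25-hydroxycholesterol, by 3.57 and Sod2, the mitochondrial superoxide dismutase, by 2.71, while the constitutive cyclooxygenase gene Ptgs1 fell by 0.55. Nos2, the inducible nitric oxide synthase, spread from 0.23 RPKM in D3 to 47.6 in D6 at 2 h and overlapped the 0 h range, with a change of 4.22 (SE 0.59, adjusted p = 0.000124). Of the glutathione synthesis genes, Gclc fell by 0.49 and Gclm was at -0.26, not called after scaling, whereas the cystine transporter gene Slc7a11 rose by 3.75.

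In the inflammasome list 7 genes rose and 7 fell of 20, where 14.5% of all genes tested rose and 31.3% fell. The falls were thus near the share over all genes. Nlrp3, the sensor that licenses interleukin-1β release, ranged from 5 to 12.2 RPKM (median 8.26) at 0 h and from 133 to 214 RPKM (median 183) at 2 h, a change of 4.41 (SE 0.13, adjusted p = 4.36e-09). Its adaptor gene Pycard fell by 0.62, the ATP receptor gene P2rx7 by 1.19 and the kinase gene Ripk1 by 0.75, and Casp1 was not called (0.23; called without D3, 0.31). Ripk2, the kinase below NOD receptors, and Mefv (pyrin) rose by 3.32 and 2.62, Ripk2 least in D3, at 1.94. Casp4, the intracellular LPS sensor in mice known as caspase-11, rose by 2.08. Of 21 apoptosis and survival genes, 10 rose and 4 fell; Cflar, an inhibitor of caspase-8, and Pim1 changed by 3.43 and 4.00, the pro-apoptotic Bcl2l11 (BIM) by 2.44, and Casp9 and Bid fell by 1.41 and 0.69. Reads of Bcl2a1b (2.65) and of its near-identical copies may have been split between them.

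On the cell surface, 12 of 17 co-stimulatory and adhesion genes rose and none fell. Icam1 went from 13.9 to 446 RPKM, a change of 4.91 (SE 0.15, adjusted p = 4.83e-09), Cd40 from 1.94 to 92.3 RPKM and Cd69 from 0.64 to 55.3 RPKM; Cd83 and Icosl changed by 4.39 and 3.56. Cd80 rose by 0.97, and Cd86 was not called, at 0.19 (called without D3, 0.25). The integrin gene Itga5 rose by 1.82, whereas Itgam, Itgb2 and Selplg were at -0.17, -0.14 and -0.30 as deposited, and after scaling Itgam and Itgb2 turned to 0.09 and 0.11. Of 17 MHC and antigen processing genes, 10 rose, none by 2-fold, the most certain being Tapbp (0.81) and H2-K1 (0.54), with Cd74 and H2-Ab1 of class II at 0.47 and 0.48 and H2-DMa, at -0.28, not called after scaling. The pattern receptor Clec4e (Mincle) rose from 18.2 to 348 RPKM and its relative Clec4d by 0.65, and among Fc receptors the inhibitory Fcgr2b rose by 2.00 while Fcgr1 and Fcgr3 fell by 0.66 and 0.45; 7 of 23 scavenger, phagocytic and Fc receptor genes rose and 5 fell.

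Receptors for chemoattractants, lipids and nucleotides went both ways. Of 30 tested, 12 rose and 11 fell, where 14.5% of all genes tested rose and 31.3% fell. Ccrl2, an atypical receptor that binds chemerin, ranged from 1.03 to 2.96 RPKM (median 1.84) at 0 h and from 115 to 275 RPKM (median 164) at 2 h, a change of 6.10 (SE 0.11, adjusted p = 2.44e-10), smallest in D4 at 5.39. Gpr84 and Hcar2, which sense fatty acid and hydroxybutyrate ligands, changed by 4.04 and 4.03, and the adenosine receptor genes Adora2a and Adora2b by 3.57 and 3.23. Cxcr4, the receptor of CXCL12, fell by 2.57, S1pr2 by 1.57, Ccr2 by 1.22 and Cx3cr1 by 0.76.

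The largest falls included transcription factors of macrophage and myeloid identity. Hhex, a homeobox factor of blood lineages, ranged from 7.33 to 12.9 RPKM (median 9.98) at 0 h and from 0.47 to 1.17 RPKM (median 0.618) at 2 h, a change of -3.16 (SE 0.14, adjusted p = 9.07e-08). Lyl1 fell by 2.54, Id1 by 2.25, Cebpa by 1.97 and Maf by 1.24. In the list of 22 lineage factors 7 fell and 7 rose, the falls near the 31.3% of all genes tested. Cebpb and Cebpd rose by 1.91 and 1.55, Ets2 by 2.84 and Tfec by 3.57. Spi1 (PU.1) rose by 0.63, and Csf1r (-0.15 as deposited, 0.11 after scaling) and Adgre1 (F4/80, 0.07) neither rose nor fell. Of 10 Krueppel-like factor genes, Klf7, Klf3 and Klf6 rose by 2.40, 1.50 and 1.24, and 4 fell, Klf10 by 1.99 and Klf4 by 1.10 among them. Of 25 chromatin modifier genes, 7 rose, led by Jdp2 (3.33), Tet2 (1.75) and Arid5b (1.51), and 6 fell, Kdm2b by 0.83.

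The single largest fall was that of Cd300lb, an activating receptor of myeloid cells, from 28.7 to 54.8 RPKM (median 37.3) at 0 h and from 1.62 to 7.41 RPKM (median 3.79) at 2 h, a change of -3.21 (SE 0.21, adjusted p = 1.36e-06). Cnr2, the cannabinoid receptor of immune cells, changed by -2.73 (SE 0.11, adjusted p = 3.27e-08). Zfp36l2, a relative of Zfp36 that also destabilises mRNA, went from 25.5 to 3.97 RPKM and fell by 2.56, least in D3 (-1.21), against a rise of 2.61 for Zfp36 and 3.71 for Zc3h12a (regnase-1). Of 13 mRNA decay genes 7 rose, among them Zc3h12c (3.63) and Btg1 (1.66), and 3 fell, the others being Zc3h12d (-1.23) and Tob1 (-0.64). Rgs2, a regulator of G proteins, and Rhov, Arhgap25, Lpar6, Pwwp2b, Gpr146, 1700017B05Rik, AI467606, Fam78a and Rnf144b were also among the 20 largest falls, between -2.14 and -2.64. For 18 of the 20 the 0 h and 2 h ranges did not overlap; Cxcr4 and Id1 were the exceptions.

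The list of Txnip, FoxO and quiescence genes was drawn up as a list of falls, with earlier results of these data known. A majority of falls in it is therefore no finding about the group. Of 22 tested, 13 fell and 5 rose, with a median of -0.53 as deposited and -0.34 after scaling. Txnip, a regulator of thioredoxin and glucose uptake, ranged from 36.9 to 86.1 RPKM (median 54.1) at 0 h and from 3.61 to 14.6 RPKM (median 7.16) at 2 h, a change of -2.82 (SE 0.15, adjusted p = 2.88e-07); it was already at 6.86 ± 3.16 RPKM at 1 h. Sesn1 and Sesn2, stress-induced inhibitors of mTORC1, fell by 2.13 and 1.02, Foxo3 by 1.87 and Tsc22d3, a glucocorticoid-induced gene, by 1.80. Against the majority Cdkn1a (p21) rose from 74 to 284 RPKM and Ccng2 and Tsc22d1 by 1.55 and 1.18. Stress genes moved too: of 17 heat shock and unfolded protein genes, 5 rose, Ppp1r15a (GADD34) by 2.84, Hspa1a by 1.57, Herpud1 by 1.26 and Hspa5 (BiP) by 0.55, and 3 fell.

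Proliferation genes fell, mostly by less than 2-fold. Of 28 cell cycle and replication genes, 18 fell and 1, Cdk6, rose, with a median of -0.49, -0.24 after scaling. E2f2 fell most, by 1.87, Ccne2 by 1.24 and Ccnd1 (cyclin D1) by 1.22, the replication helicase genes Mcm2 to Mcm7 by 0.42 to 0.59, and Mki67 (0.08) was not called. Ccne1, Plk1 and Aurka fell by 0.93, 0.75 and 0.71. Of 10 circadian genes tested, 6 fell and none rose, Per1 by 1.19, Dbp by 1.09, Tef by 1.07 and Arntl (BMAL1) by 0.60.

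Metabolic lists moved little. Of 23 glycolysis and hypoxia genes, 6 rose and 4 fell, none by 2-fold on both scales; Hif1a, Slc2a1 (GLUT1) and Hk2 rose by 0.87, 0.97 and 0.54, and Pfkfb4 and Pdk1 fell by 1.04 and 0.64. The 25 genes listed for the Krebs cycle and respiratory chain include Idh1 and Mdh1, whose enzymes are cytosolic. Of the 25 only Idh1 fell, by 0.53, and none rose. Mdh1, Fh1 and Sdhc, at -0.33, -0.35 and -0.25, were called lower only as deposited. The 18 cholesterol genes gave 4 rises and 4 falls, all under 2-fold: Srebf2 and Idi1 rose by 0.46 and 0.33, Lss and Stard4 fell by 0.69 and 0.45, and Sqle was at -0.35, lower only as deposited. Among 18 lipid handling genes Abca1, Fabp4 and Nr1h2 (LXRβ) rose by 1.14, 0.88 and 0.28 while 6 fell, among which Abcg1, Scd2 and Pparg by 1.04, 1.24 and 0.99. In the lysosome list Ctsc (cathepsin C) rose by 2.73, Tfe3 by 0.23 and Ctsz by 0.10, the last a call lost without D6 or UKD, Tfeb, Lipa and Npc1 fell by 1.46, 0.48 and 0.42, and 17 of 23 neither rose nor fell. Of 19 reference housekeeping genes, 2 fell and none rose, with changes from -0.60 to 0.07. Hprt, Gusb and Vps29 were at -0.31, -0.26 and -0.20, and Vps29 does not count as fallen. The median of this list was -0.10 as deposited and 0.16 after scaling. Plaur (1.88) and F10 (2.00) were among 9 of 17 coagulation and complement genes that rose, with Plat, the tissue plasminogen activator (2.81), while Pros1 (-0.36) and Cfp (-0.17) were called lower only as deposited.

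**Figure D4:**
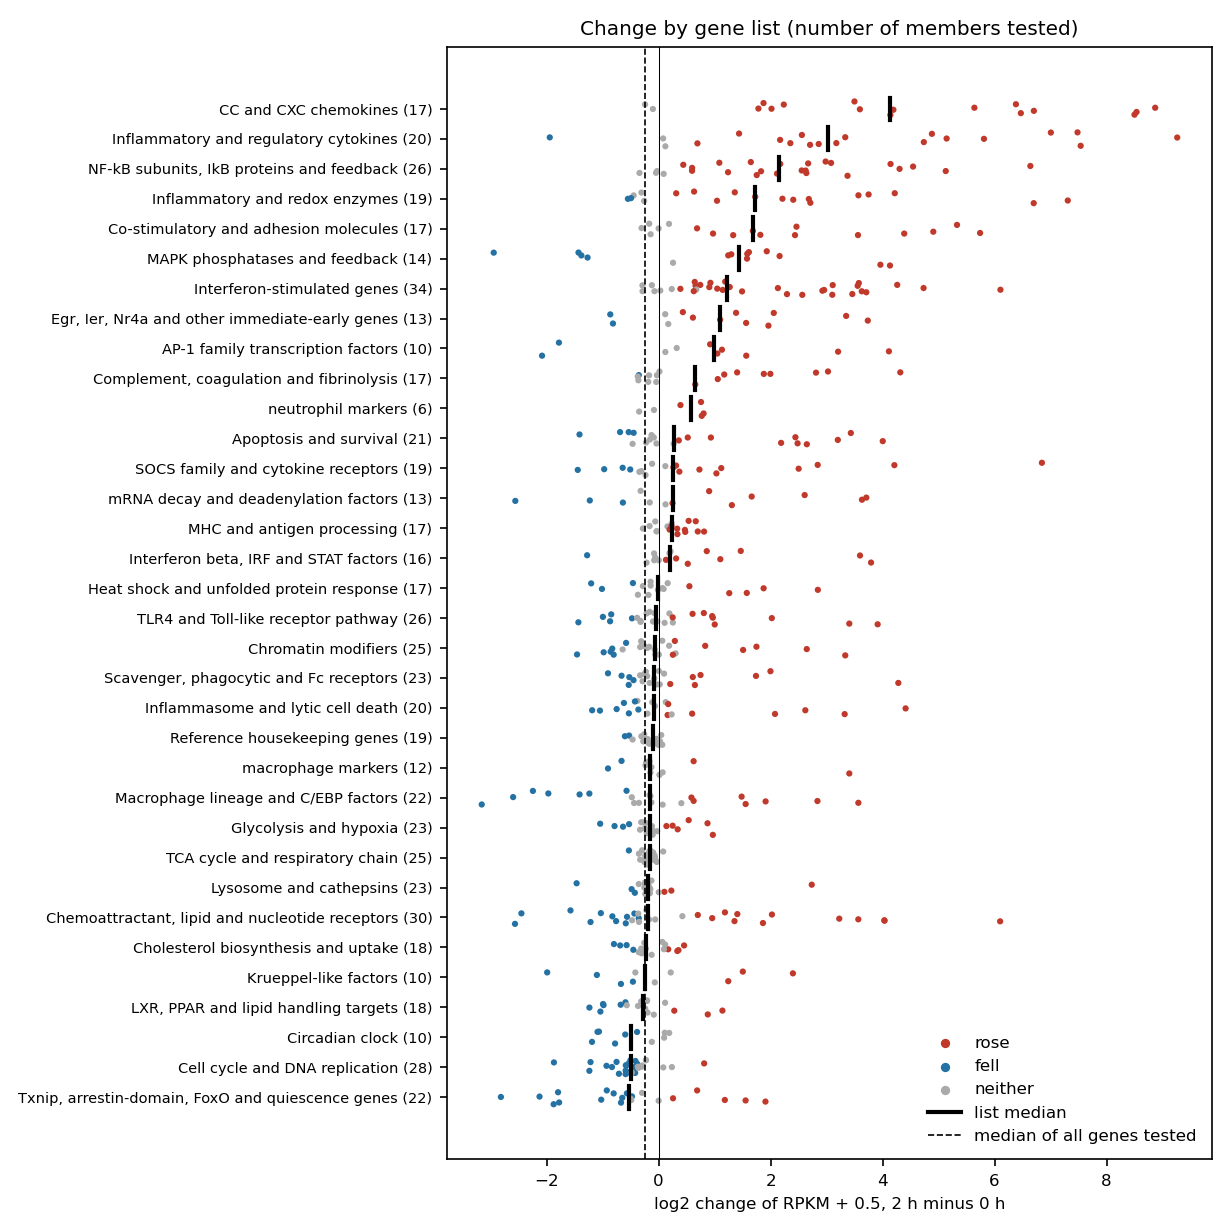
Log2 change (2 h minus 0 h, RPKM + 0.5) of every tested member of 34 gene lists, 1 point per gene, coloured by call, with the list median (bar) and the median of all genes, -0.25 (dashed). Chemokines, cytokines and the NF-kB list lie far to the right, with medians of 4.14, 3.02 and 2.14, and the Txnip and cell cycle lists farthest left.

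The 7 cultures shared the direction and differed in size. Over genes chosen as risen at least 2-fold in the other 6 cultures, the median change in the culture left out was 1.35 in D3 (540 genes) and 1.8 to 2.21 in the others. Over genes chosen as fallen it was -0.86 in D3 (268 genes) and between -1.32 and -1.92 in the others. D3 was the only culture whose value lay nearer 0 than all the others in both sets, and 97.4% of its 540 genes were higher at 2 h. Leaving D3 out raised the counts of 2-fold rises from 512 to 540 and of 2-fold falls from 218 to 268. In D3 at 2 h, Dusp1 stood at 99.4 RPKM against 8.46 to 22.8 in the others, Fos at 7.91 against 0.557 to 2.12, and Il12b and Nos2 were the lowest of all. Il1b in D3 changed by 9.35, within the range of the other 6. The change in 1 culture stood apart from the other 6 for 18 of 272 named genes, where about 1 in 20 is the share chance gives, in D3 for 10 (Jun, Spry2, Zfp36l2, Gpr146, Ripk2, Klf3, Herpud1, Tet2, Tef and Ccl17), in D4 for 5 (Nfkbiz, Ccl5, Ccrl2, Il10 and Arid5b), in D6 for 2 (Lss and Scd2) and in UKD for 1 (Pim1).

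**Figure D5:**
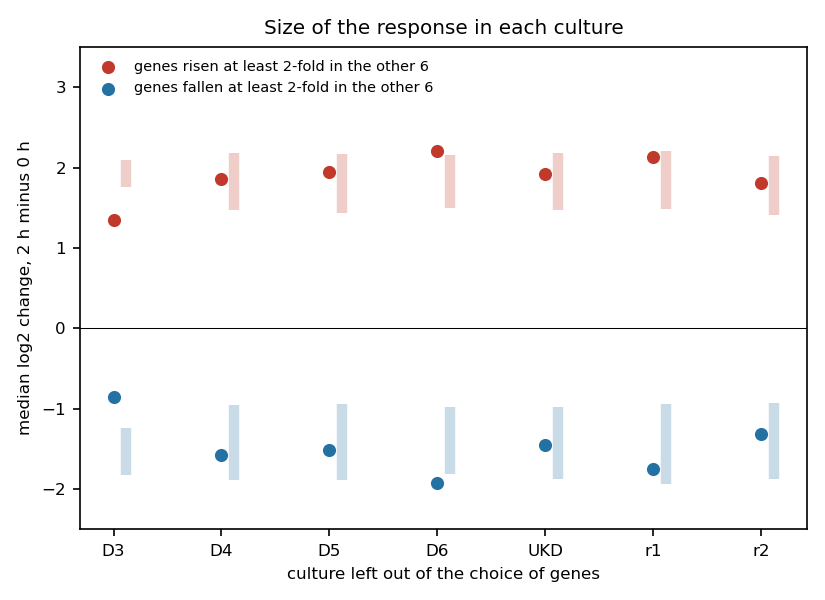
Median log2 change (2 h minus 0 h) in each culture over genes chosen as changed at least 2-fold in the other 6 cultures (points), with the range of medians of those 6 (bars). D3 lies nearer to 0 than its bars, at 1.35 and -0.86, D6 lies slightly beyond the far end of its bars, and the other 5 cultures lie within theirs.

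Among called genes the change varied most between cultures in Saa3, an acute-phase protein gene, Nos2, Ccl5, Mx1 and Il12b. Saa3 ranged from 0.229 to 66.8 RPKM (median 0.839) at 0 h, with D4 at 66.8, and from 13 to 479 RPKM (median 103) at 2 h. The SD of its change was 2.08, against a median SD of 0.48 over the genes risen at least 2-fold and 0.19 over all tested. Between the cultures named D3 to D6 and those named UKD, r1 and r2, limma called 0 of 10075 responses different (0%), and 302 had an unadjusted p under 0.05. The smallest p was that of Flrt3, an adhesion gene (1.29, SE 0.28, adjusted p = 1), followed by Rps6-ps4, Zcchc2, Marchf5 and Kcna3, and the count was 0 in every alternative that gave a value.

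Several risen genes lay next to each other along the chromosomes. With tested genes placed in RefSeq order (GRCm38.p6), 150 of the 512 that rose at least 2-fold (29.3%) had a 2-fold riser as next tested gene on either side, against 9.72% of all tested genes. For falls it was 21 of 218 (9.63%) against 4.29%. Il1a and Il1b formed 1 such run, Cxcl1, Cxcl2 and Cxcl3 another with Areg, and Ccl2, Ccl7 and Ccl12, Gbp2, Gbp3, Gbp5 and Gbp7, Ccl17 and Ccl22 with Cx3cl1, and 6 interferon-inducible genes around Ifi204 others. Members of such families resemble each other in sequence, and how reads mapping to several copies were counted is not given in the sources used here. Neighbourhood was looked at after these results were known and was not tested.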

How the data were processed

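The deposited table gives 1 RPKM value per library for 44401 RefSeq transcripts on mm9, made by the authors; per the submitters' processing notes FastQC, cutadapt, HISAT2 and SAMtools were used. Neither labels nor notes give the counting program, its strand setting or how multi-mapping reads were treated. All 30 value columns were matched to a sample (0 were not). For each of 24761 symbols the transcript with the highest mean RPKM was kept.

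Changes were computed on log2(RPKM + 0.5) with limma 3.58.1 (lmFit, eBayes with trend) in R 4.3.3, with culture as a block, over genes that reached 1 RPKM in 3 or more of the libraries fitted, two-sided, with Benjamini-Hochberg adjustment and a threshold of 0.05. Figures and summaries used numpy 2.4.6, pandas 2.3.3 and matplotlib 3.10.9. The scripts were tested on simulated data. Because scaling moved the median of all genes, calls were also required after median-of-ratios scaling, a rule added after the data were seen. Pairing rests on shared culture names and on the deviations of same-named libraries over 9566 genes, which correlated at 0.637 to 0.882 between 0 h and 2 h, against at most 0.68 with another culture (r1 with r2). UKD with D5 reached 0.67. Both lie above the 0.637 of D6 with itself, and whether such cultures are independent of each other was not tested. Depth was derived from the size of single-read steps. The 14 libraries limit precision to differences beyond the spread over 7 cultures.

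Named genes were Il1b, the 20 largest rises and 20 largest falls in 1 direction in all 7 cultures, the 10 highest at 2 h, up to 4 called members of each list with the smallest p and up to 3 against its majority, the 5 most variable and the 5 smallest p between name series; other genes were named after their values were seen, and some genes that the rule names are not reported here. The comparison and the 39 gene lists (726 symbols, 641 tested) were chosen with earlier results of these data known. Promoters and gene order came from RefSeq, GRCm38.p6. Alternatives covered pseudocount, filter, scaling, block, covariate, transcript choice, name series and leaving out each culture.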

Additional observations from a re-analysis of the deposited data

Results flagged for a closer look

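For each of 272 named genes, the highest or lowest of the 7 within-culture log2 changes was compared with the nearest other one. The gap exceeded 0.568 of the whole range for 18 genes, a share not far above the about 1 in 20 that chance gives. The named genes include those chosen as most variable, and genes measured in 1 culture are not independent. The culture apart was D3 in 10, D4 in 5, D6 in 2 and UKD in 1.

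In D3, Jun changed by 0.61, against -3.29 to -1.88 in the other 6 cultures, and Spry2, lower at 2 h in each of the others, by 1.33 against -1.97 to -1.23. Smaller falls in D3 were those of Zfp36l2 (-1.21, others -3.01 to -2.55), Gpr146 (-1.71, others -2.77 to -2.32) and Tef (-0.46, others -1.38 to -1.03). Smaller rises in D3 were those of Ripk2 (1.94, others 3.16 to 4.02), Klf3 (0.48, others 1.40 to 1.96), Herpud1 (0.40, others 1.20 to 1.64), Tet2 (0.87, others 1.68 to 2.14) and Ccl17 (1.15, others 3.31 to 4.44).

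In D4, Ccl5 rose by 2.49, against 6.01 to 8.49 in the others, from the highest level before LPS. Nfkbiz rose there by 5.74 (others 6.58 to 7.02), Ccrl2 by 5.39 (others 5.99 to 6.41) and Il10 by 1.28 (others 2.20 to 2.77), whereas Arid5b rose by 2.04, more than elsewhere (1.34 to 1.59). In D6, Scd2 changed by -2.01 (others -1.21 to -0.83) and Lss by -1.05 (others -0.76 to -0.54). In UKD, Pim1 rose by 3.33 (others 3.95 to 4.26). Whether these cultures differ in these genes beyond chance was not tested.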

How the results depend on the processing

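Without a replicate block and without covariate, 4528 genes were called between 2 h and 0 h in place of 7712 (926 higher, 3602 lower, 926 genes risen on both scales and 1471 genes fallen on both scales), and 1092 between 2 h and 1 h in place of 4133. Without the block but with the name series as covariate, the last count was 1641 and 1918 genes fell on both scales. With D3 to D6 alone 2169 genes differed between 2 h and 1 h and 1962 fell on both scales, with UKD, r1 and r2 alone 1768 and 1689. In the exact test of Il1b these subsets cannot reach 0.05: the change was 9.10 (D3 to D6), 9.47 (UKD, r1 and r2) and 9.18 with r1 and r2, and D5 and UKD, averaged. These cultures were averaged because their deviations resembled each other. With them averaged, 7072 genes were called between 2 h and 0 h in limma, 1328 higher and 5744 lower. Median-of-ratios scaling gave 2991 higher and 3156 lower genes and turned the sign of Stat6 (0.0361), Itgam (0.0855), Itgb2 (0.1115), Cfp (0.0823), Vps29 (0.0539), Csf1r (0.1087) and Lyz2 (0.0941), none of which counts as risen or fallen. Genes fallen at least 2-fold numbered 381 with a pseudocount of 0.1 and 145 with 1.

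Leaving out each culture gave 7224 to 7720 genes changed, 1373 to 1539 higher and 5851 to 6181 lower, 1372 to 1538 genes risen on both scales, 2784 to 3166 genes fallen on both scales, 491 to 540 risen and 186 to 268 fallen at least 2-fold, 3283 to 4719 changed between 2 h and 1 h, 0 different between name series in each case, and an Il1b change of 9.14 to 9.39. Of 271 other named genes, 208 kept direction and side of the threshold in all alternatives that gave a value; 44 lost their call without block and covariate, 34 without the block but with the covariate, 14 after scaling and 5 when a culture was left out. The difference between name series gave no value within 1 name series or with it as a covariate. The cause of these changes was not tested. The change of Il1b, at a median of 0.173 RPKM before LPS, was 10.41 with a pseudocount of 0.1 and 8.57 with 1.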
